A study of Mus musculus with 8 samples.

Results

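The 9 genes described here make, move, break down or read retinoic acid, out of 39056 genes counted in the hearts of HVCN1 null and wild-type (WT) mice. They are Rbp4 and Stra6 (retinol transport and uptake), Dhrs3 (return of retinal to retinol), Aldh1a1 and Aldh1a2 (synthesis of retinoic acid), Cyp26b1 (its breakdown), and the nuclear receptors Rara, Rarb and Rxra. Cyp26b1 was picked for its lower level in these same HVCN1 null hearts, so it was chosen by the same contrast and its difference between the genotypes is a description without a test. The other 8 genes were listed as its pathway. All 9 passed the filter on low counts and are among the 14796 genes tested.

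RNA-seq was run on heart RNA from 4 HVCN1 null mice and 4 WT mice, with 1 library per heart. HVCN1 null mice carry a knockout of Hvcn1, the gene of the voltage-gated proton channel, and both groups were males 3 months old on a C57BL/6 background. The labels give no treatment beyond the knockout and do not say whether the atria were kept. Hearts are numbered as the libraries were, 1 to 4 for HVCN1 null (null below) and 5 to 8 for WT.

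Retinoic acid is made from circulating retinol (vitamin A) in a pair of oxidation steps. Retinol is carried in blood by RBP4, enters some cells through STRA6, is oxidised to retinal by retinol dehydrogenases, and is then oxidised to retinoic acid by the ALDH1A enzymes. Retinoic acid binds heterodimers of a retinoic acid receptor and a retinoid X receptor on DNA, and enzymes of the CYP26 family clear it. In the heart this pathway is best known from development, where it helps to set up the inflow tract and atria, and the epicardium is a known site of Aldh1a2 expression.

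Promoter sequences are shown for Cyp26b1, which has the widest difference between the genotypes among the 9 genes, for Aldh1a2, the other enzyme with a large difference, and for Rarb, a receptor gene known to be switched on by retinoic acid. Each is the 250 bases before the transcription start in RefSeq (GRCm38.p6), written 5′ to 3′ on the strand of the gene. They lie at chr6:84593811-84594060 (minus strand), chr9:71215539-71215788 (plus strand) and chr14:16575477-16575726 (minus strand). Capitals mark a TATAAA box in Cyp26b1 and, in Rarb, the 6-base core motifs of retinoid receptor binding with the spacer between paired ones. Core motifs were searched on both strands as AGGTCA, then as AGTTCA, then as GGGTCA and then as GGTTCA. Aldh1a2 has no capitals because neither motif is in its window.
Cyp26b1: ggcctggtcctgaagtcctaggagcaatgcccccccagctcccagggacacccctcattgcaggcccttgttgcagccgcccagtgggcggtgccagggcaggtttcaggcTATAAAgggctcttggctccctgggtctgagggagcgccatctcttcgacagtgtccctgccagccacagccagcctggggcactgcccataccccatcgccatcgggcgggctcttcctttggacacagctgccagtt
Aldh1a2: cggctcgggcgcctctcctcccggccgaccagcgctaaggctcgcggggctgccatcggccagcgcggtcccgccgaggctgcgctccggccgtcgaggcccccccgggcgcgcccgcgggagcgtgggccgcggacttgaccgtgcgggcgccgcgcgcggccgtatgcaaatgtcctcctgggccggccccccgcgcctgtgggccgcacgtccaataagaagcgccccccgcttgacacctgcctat
Rarb: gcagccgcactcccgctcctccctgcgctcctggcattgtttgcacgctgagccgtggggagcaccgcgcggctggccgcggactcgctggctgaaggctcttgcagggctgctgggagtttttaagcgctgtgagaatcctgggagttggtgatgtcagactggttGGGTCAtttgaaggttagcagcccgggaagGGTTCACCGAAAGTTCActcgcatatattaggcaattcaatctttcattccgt

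The Rarb window holds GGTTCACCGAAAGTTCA, a direct repeat of the core motif with a spacer of 5 bases, at 53 to 37 bases before the start. A repeat with this spacer is the arrangement best known for heterodimers of the retinoic acid and retinoid X receptors. Among 32851 promoter windows of 27025 genes in RefSeq, 29 (0.0883%) held such a repeat on either strand. A repeat with a spacer of 1 or 2 bases was in 0.164% and 0.174% of windows. Any single core motif was in 38.6% of all windows, and in 5 of the 20 windows annotated for the 9 genes. Single motifs can overlap the repeats, which are counted in both. The windows of Cyp26b1 and Aldh1a2 held no core motif, which says only that these letters are not in these 250 bases. TATAAA was in 7.59% of all windows. These matches are descriptions of sequence, and no binding was measured.

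Hvcn1 was at 0.0379 to 0.180 CPM in the 4 null hearts (16 counts in all) and at 1.52 to 2.59 CPM in the 4 WT hearts (318 counts), so the labels held in every heart. CPM is a gene's read count scaled to a common depth, with library sizes adjusted by the TMM method. Each heart had between 25851255 and 38874640 counts. The hearts differed widely in atrial transcripts. Myl7, the atrial myosin light chain, was at 17.0, 636, 607 and 33.7 CPM in null hearts 1 to 4 and at 578, 0.621, 1175 and 0.167 CPM across WT hearts 5 to 8. The 4 hearts above 100 CPM (HVCN1 null 2 and 3, WT 5 and 7) are called Myl7-rich below and the other 4 Myl7-poor. The Myl7-rich hearts were not alike in every atrial marker. Bmp10 was at 421 CPM in null heart 2 and 569 in WT heart 7, but at 0.0379 in null heart 3 and 0.152 in WT heart 5. Summed over 12 atrial markers, CPM ran from 454 to 4993 in the null group and from 244 to 8986 in the WT group, and none of the 11 tested markers passed an adjusted edgeR p of 0.05, though all 11 had a log2 fold change below 0 (median -0.34). The ventricular markers were high in every heart, from 9380 to 13800 and from 7674 to 14070 CPM. Hepatocyte markers summed to less than 1 CPM in every heart, and Alb and Fga were at 0.

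Across the tested genes, 169 (1.14%) passed edgeR's quasi-likelihood test at a Benjamini-Hochberg adjusted p of 0.05, 11.0% had an unadjusted p under 0.05, and in 7.14% the CPM of the groups did not overlap. Of the 8 retinoid genes other than Cyp26b1, 0 passed the adjusted threshold, 2 (Aldh1a1 and Aldh1a2) had an unadjusted edgeR p under 0.05, and 0 had groups that did not overlap. DESeq2 called 1 of the 8, Aldh1a2, and 3.15% of all tested genes. Their median log2 fold change, HVCN1 null over WT throughout, was -0.10, against -0.01 over all tested genes, with 3 higher and 5 lower. Means of CPM were also compared gene by gene with an exact permutation test (two-sided), for which 0.0286 is the smallest p that 4 against 4 hearts allow. The exact p ran from 0.0571 to 0.886 over the 8 genes.

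**Figure D1:**
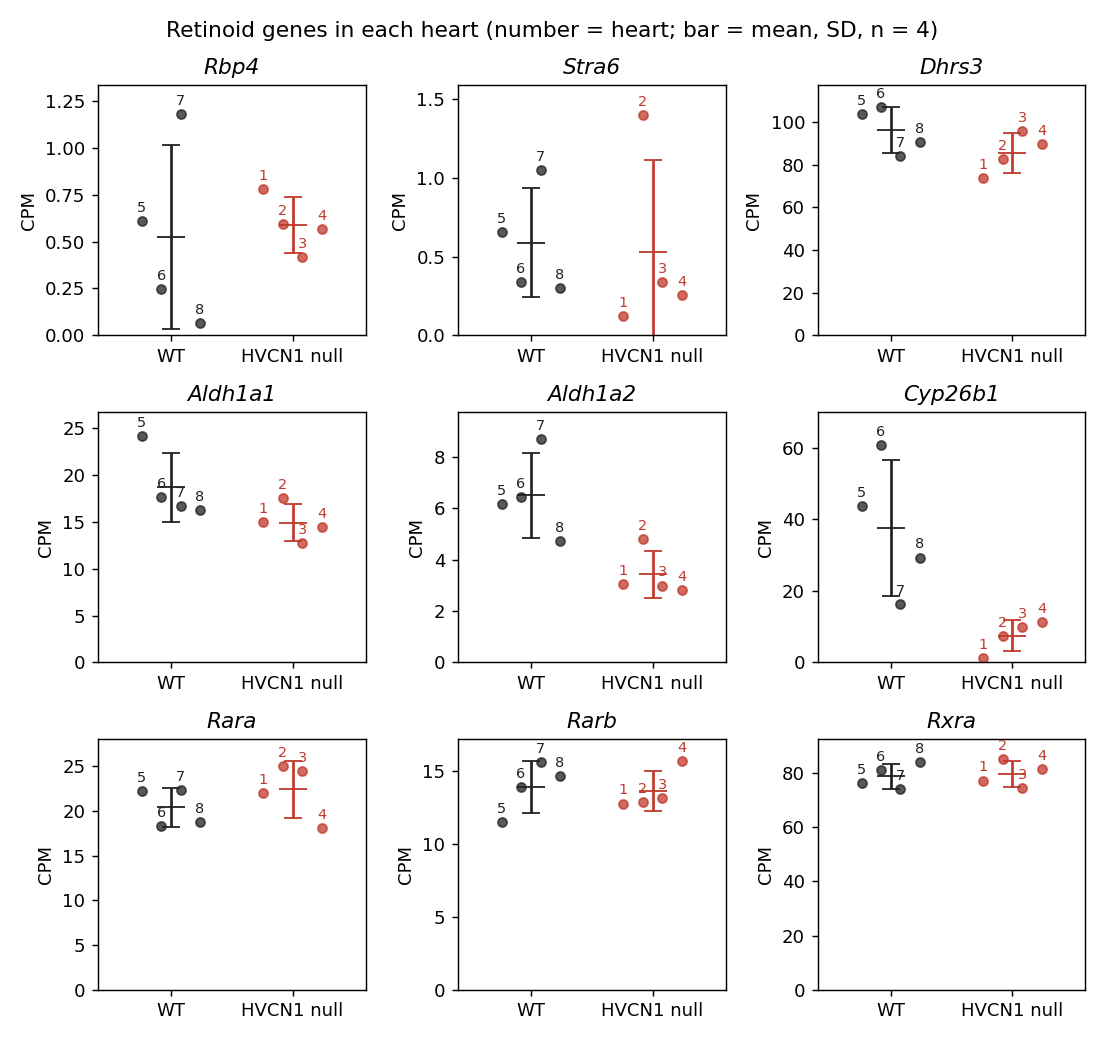
CPM of the 9 retinoid genes in each heart, ordered by role. Each point is a heart with its number, the long bar is the mean and the whiskers are the SD (n = 4 per group, the lower whisker of Stra6 in null hearts runs below 0 and is cut there). Only Cyp26b1 has groups that do not overlap, and for Aldh1a2 they overlap by null heart 2 at 4.79 and WT heart 8 at 4.72 CPM.

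Rbp4 (chromosome 19, 38116629 to 38125281), the blood carrier of retinol, is made mainly in liver and fat, and was scarce in these hearts (positions here and below are GRCm38). Both genotypes gave 79 counts in all. CPM values were 0.782, 0.592, 0.417 and 0.567 in null hearts 1 to 4 and 0.608, 0.248, 1.18 and 0.0669 across WT hearts 5 to 8. The HVCN1 null values lay inside the WT range. Between the genotypes the log2 fold change was 0.13 (SE 0.60, edgeR adjusted p = 0.980, exact permutation p = 0.886). WT hearts 5 and 7, the Myl7-rich ones, averaged 5.67 times the level of WT hearts 6 and 8, while among null hearts the same ratio was 0.748. Among Myl7-rich hearts the mean was 0.504 CPM in HVCN1 null and 0.894 in WT (log2 fold change -0.82, edgeR adjusted p = 1). Among Myl7-poor hearts it was 0.674 and 0.158 CPM (log2 fold change 2.06, edgeR adjusted p = 0.355), so the direction turned between the sets. The genotypes overlapped in neither, each with only 2 hearts per genotype. Without WT heart 7 the log2 fold change was 0.88.

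The 6 adipocyte markers, from a tissue that makes RBP4, summed to 2.59, 28.3, 11.8 and 5.47 CPM in null hearts 1 to 4 and to 9.55, 0.435, 63.5 and 0.937 CPM across WT hearts 5 to 8. WT hearts had more Rbp4 where this sum was high, while null heart 1, with the lowest sum of its group, had the most Rbp4. Their part in the Rbp4 values was not tested.

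Stra6 (chromosome 9, 58063788 to 58153996), the membrane receptor for RBP4, was also scarce, with 74 counts in HVCN1 null and 86 in WT hearts. CPM values were 0.120, 1.40, 0.341 and 0.255 in null hearts 1 to 4 and 0.659, 0.341, 1.05 and 0.301 across WT hearts 5 to 8. Null heart 2 and WT heart 7 were the highest of their groups, and they also had the highest sums of epicardial (given below), atrial, adipocyte and endocardial markers in their groups. The part of these tissues in the values was not tested. Between the genotypes the log2 fold change was -0.15 (SE 0.68, edgeR adjusted p = 0.979, exact permutation p = 0.800). Myl7-rich hearts averaged 4.64 times the level of Myl7-poor hearts in HVCN1 null and 2.66 times in WT. The ratio in HVCN1 null came from null heart 2. Null heart 3, with nearly the same Myl7 (607 against 636 CPM), was at 0.341 CPM, near null heart 4 at 0.255 CPM. Without null heart 2 the log2 fold change was -1.34 (edgeR adjusted p = 0.444), and without WT heart 7 it was 0.28, so single hearts decided its size and sign.

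Dhrs3 (chromosome 4, 144892827 to 144928209), a reductase that turns retinal back into retinol and is itself known to be induced by retinoic acid, was the most abundant of the 9 per unit of length. CPM values were 73.8, 82.9, 95.8 and 89.8 in null hearts 1 to 4 and 104, 107, 84.2 and 90.9 across WT hearts 5 to 8. The groups overlapped, although the lowest hearts were HVCN1 null 1 and 2 and the highest were WT 5 and 6. The means were 85.6 ± 9.45 and 96.4 ± 10.7 CPM (SD, n = 4 each), with a log2 fold change of -0.18 (SE 0.11, edgeR adjusted p = 0.661, exact permutation p = 0.171).

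Aldh1a1 (chromosome 19, 20492715 to 20643465), an enzyme that oxidises retinal and other aldehydes, was at 15.0, 17.6, 12.8 and 14.4 CPM in null hearts 1 to 4 and at 24.2, 17.7, 16.8 and 16.3 CPM across WT hearts 5 to 8. Null heart 2 lay within the WT range and the other 3 null hearts lay under it. The means were 14.9 ± 1.99 and 18.7 ± 3.69 CPM (SD, n = 4 each), with a log2 fold change of -0.33 (SE 0.14, edgeR unadjusted p = 0.0411, adjusted p = 0.424, exact permutation p = 0.0857).

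Aldh1a2 (chromosome 9, 71215789 to 71296243), the main retinoic acid synthesising enzyme of the embryo and of the epicardium, was at 3.07, 4.79, 2.99 and 2.83 CPM in null hearts 1 to 4 and at 6.16, 6.43, 8.70 and 4.72 CPM across WT hearts 5 to 8. The groups overlapped only by null heart 2, which was slightly above WT heart 8. The means were 3.42 ± 0.918 and 6.50 ± 1.65 CPM (SD, n = 4 each), from 459 and 923 counts. The log2 fold change was -0.93 (SE 0.22, edgeR unadjusted p = 0.00181, adjusted p = 0.101, exact permutation p = 0.0571), so it did not pass the threshold of the fit across all genes. Fewer cells that express a gene and less RNA per cell cannot be told apart in RNA of mixed tissue, here or for any gene below.

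For Aldh1a2 the call depended on the setting, and the size moved less. The log2 fold change lay between -1.14 and -0.75 in 18 alternative fits, and the adjusted p between 0.00712 and 0.719. It passed with DESeq2 (adjusted p = 0.00712), with Myl7, the atrial score or the epicardial score as a covariate in edgeR (adjusted p = 0.0301, 0.0198 and 0.00947), and with edgeR without null heart 2 (adjusted p = 0.0392, log2 fold change -1.14). Among Myl7-rich hearts the mean was 3.89 CPM in HVCN1 null and 7.43 in WT, 1.91-fold higher in WT. Among Myl7-poor hearts it was 2.95 and 5.57 CPM, 1.89-fold higher in WT. The genotypes did not overlap within either set, each with 2 hearts per genotype. So few hearts separate easily, and Rbp4 also overlapped in neither set, with opposite directions. The share of all genes that do so was not computed.

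The 10 epicardial and mesothelial markers, which include Upk3b, Msln, Krt19 and Wt1, summed to 14.1, 60.7, 25.0 and 8.96 CPM in null hearts 1 to 4 and to 25.6, 13.1, 76.4 and 7.43 CPM across WT hearts 5 to 8. The groups overlapped across nearly the whole range. By the adjusted edgeR threshold 0 of the 9 tested markers passed, beside 1.14% of all tested genes. Of the 9, 8 were lower in null hearts (median log2 fold change -0.23) and 1, Wt1, was higher. Within each genotype the heart with the highest sum (HVCN1 null 2, WT 7) had the most Aldh1a2 and the heart with the lowest sum (HVCN1 null 4, WT 8) the least. The hearts between went the other way, with Aldh1a2 at 3.07 CPM in null heart 1 and 2.99 in null heart 3. In WT it was at 6.43 CPM in heart 6 and 6.16 in heart 5. Null heart 2 and WT heart 7 were also the highest of their groups in the summed atrial (4993 and 8986 CPM), adipocyte (28.3 and 63.5 CPM) and endocardial (117 and 150.1 CPM) markers, and the part of each tissue in the Aldh1a2 values was not tested. Null heart 2 had the second highest marker sum of all 8 hearts and an Aldh1a2 level near that of WT heart 8. With the epicardial score in the fit the log2 fold change was -0.92.

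**Figure D2:**
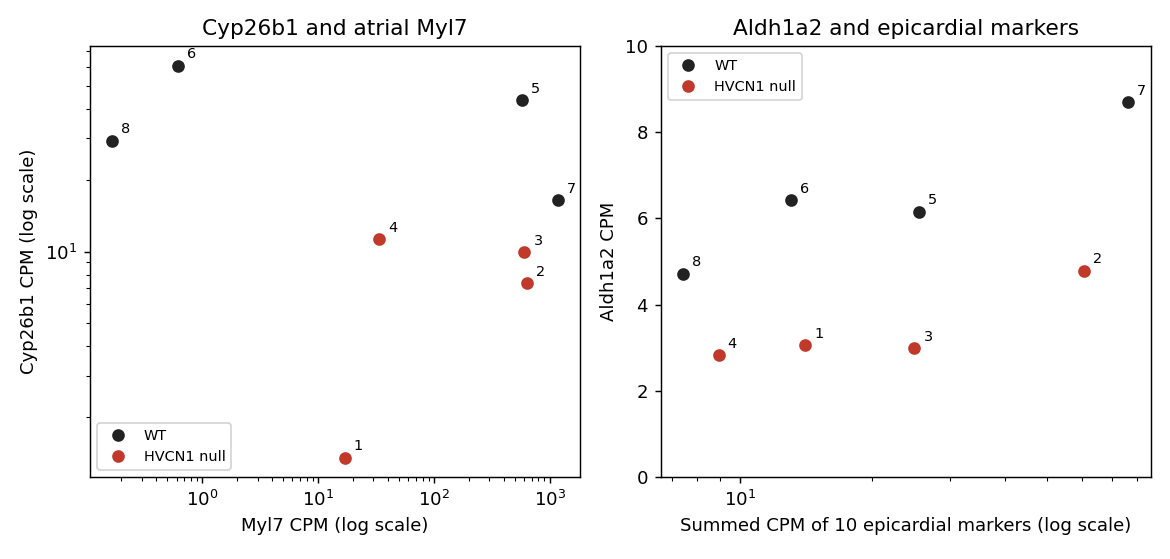
Left, CPM of Cyp26b1 against CPM of the atrial gene Myl7 in each heart, both on log axes. Right, CPM of Aldh1a2 against the summed CPM of 10 epicardial and mesothelial markers on a log axis. Each point is 1 heart with its number. Cyp26b1 is highest in WT heart 6 (60.9 CPM), which has almost no Myl7, and within each genotype Aldh1a2 is highest in the heart with the highest marker sum (null 2, WT 7). The hearts between the highest and lowest sums of each genotype do not follow that order.

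Aldh1a3, the third enzyme of the family, was not among the 9 genes but shares their reaction. CPM values were 4.48, 3.77, 3.37 and 1.90 in null hearts 1 to 4 and 1.62, 0.993, 2.52 and 0.669 across WT hearts 5 to 8. It was thus on the high side in null hearts, with WT heart 7 above null heart 4 (log2 fold change 1.20, SE 0.39, edgeR adjusted p = 0.248). Scaled to length, the 3 transcripts together came to 5.36, 6.49, 4.64 and 4.59 CPM per kb in null hearts and 7.97, 6.64, 7.78 and 5.52 CPM per kb in WT hearts. The means were 5.27 ± 0.888 and 6.98 ± 1.13 (SD, n = 4 each, exact permutation p = 0.0571). Aldh1a2 made up 25.3% to 32.6% of the sum in null hearts and 34.1% to 49.4% in WT hearts. Aldh1a3 made up 8.97% to 18.1% in null hearts and 2.63% to 7.0% in WT hearts, and neither pair of ranges overlapped. These shares are parts of the same sum, so they depend on each other. The CPM of Aldh1a2 and of Aldh1a3 did overlap between the genotypes, and how often such shares separate was not computed.

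**Figure D3:**
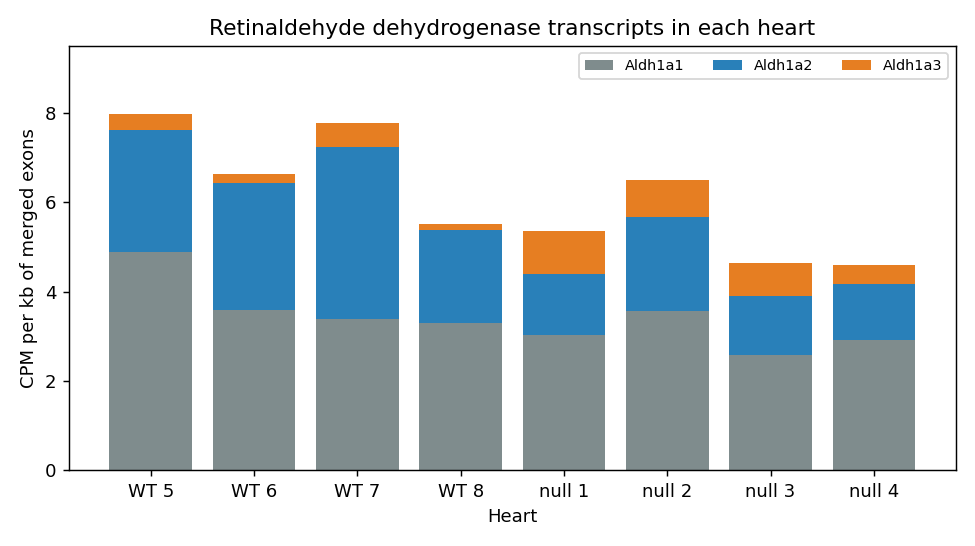
Stacked CPM per kb of merged exons for Aldh1a1, Aldh1a2 and Aldh1a3 in each heart. Aldh1a1 and Aldh1a2 make up most of every bar, and Aldh1a3 takes from 8.97% to 18.1% of the bar in null hearts and from 2.63% to 7.0% in WT hearts.

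Cyp26b1 (chromosome 6, 84571414 to 84593908, minus strand) encodes a cytochrome P450 that hydroxylates retinoic acid for removal. CPM values were 1.35, 7.37, 9.92 and 11.3 in null hearts 1 to 4 and 43.6, 60.9, 16.5 and 29.3 across WT hearts 5 to 8. Every WT heart was above every HVCN1 null heart, and the spread within each genotype was wide, 1.35 to 11.3 and 16.5 to 60.9. The means were 7.48 ± 4.40 and 37.6 ± 19.1 CPM (SD, n = 4 each), so that WT was 5.02-fold higher. The reads behind them were 979 counts in HVCN1 null and 5187 in WT hearts. The log2 fold change was -2.33 (SE 0.54), and it lay between -2.82 and -1.81 in the 18 alternative fits.

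The atrial gene Myl7 did not order the hearts as Cyp26b1 did. WT heart 6, with almost no Myl7, had the most Cyp26b1, and WT heart 7, with the most Myl7, had the least of the WT hearts. The 2 sets of hearts lie far apart in Myl7, with 4 in each, so no correlation over the 8 hearts is given. In Myl7-rich hearts the mean of Cyp26b1 was 8.65 CPM in HVCN1 null and 30.0 in WT (3.47-fold higher in WT). In Myl7-poor hearts it was 6.32 and 45.1 CPM (7.14-fold higher in WT). Since every WT heart was above every null heart, no split of the hearts could make the genotypes overlap. From Myl7-poor to Myl7-rich hearts the level differed in opposite directions, 1.37 times as high in HVCN1 null and 0.666 times as high in WT. With Myl7 as a covariate the log2 fold change was -2.23, and with the atrial score it was -2.22.

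The other members of the CYP26 family were scarce. Cyp26a1 gave 27 counts in HVCN1 null and 23 in WT hearts, and Cyp26c1 gave 11 and 2, and neither passed the filter on low counts. Of the 46 genes annotated within 1 Mb of Cyp26b1, 15 were tested and 0 of them passed the adjusted edgeR threshold. Over all tested genes 1.14% passed, so 0 of 15 says little. The neighbours Exoc6b and Dysf had log2 fold changes of 0.03 and 0.08. Only for Nagk did the groups not overlap, with null hearts higher (log2 fold change 0.23, SE 0.10, edgeR adjusted p = 0.447). Over all tested genes 7.14% did not overlap.

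Dhrs3 was the gene among the other 8 whose level followed Cyp26b1 most closely over the hearts. Over the 8 hearts Pearson's r of log2 CPM was 0.885 and Spearman's rho 0.833, given without a test. After the genotype means were removed, r was 0.901, and 170 of 12909 genes with a mean of at least 1 CPM (1.32%) had an r at least as high. Dhrs3 was picked as the highest of 8, so this share is not a test. Within the 4 null hearts r was 0.905 and within the 4 WT hearts 0.978. Without null heart 1 and WT heart 6, the hearts farthest from the median of Cyp26b1, r over the other 6 was 0.636. For the other 7 genes r with the genotype means removed ran from -0.361 (Rbp4) to 0.297 (Rxra). The hearts share their libraries and scaling, and many genes correlate over so few hearts.

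The 10 genes most like Cyp26b1 in pattern over the 8 hearts were Dnajc9 (r = 0.983), Ccdc88b (0.977), Aktip (0.974), Chid1 (0.970), Arl6ip5 (0.961), Mrps5 (0.961), Dhrs7b (0.956), Kctd21 (0.953), Aen (0.951) and Pkdcc (0.950). With the genotype means removed their r lay between 0.865 (Aen) and 0.979 (Dhrs7b). The r over the 8 hearts, by which the 10 were ranked, includes the genotype difference for which Cyp26b1 was picked. None of the 10 is on the wider list of retinoid genes. That list holds 50 of the 14796 tested genes, so few sets of 10 would include one, and the absence says little.

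The 3 receptor genes had log2 fold changes between -0.04 and 0.13, and the groups overlapped for each. Rara (chromosome 11, 98927818 to 98974942), the retinoic acid receptor alpha gene, was at 22.0, 25.1, 24.5 and 18.1 CPM in null hearts 1 to 4 and at 22.2, 18.3, 22.3 and 18.8 CPM across WT hearts 5 to 8. Null hearts 2 and 3 lay above the WT range, null heart 4 just under it and null heart 1 inside it. With that spread the log2 fold change was 0.13 (SE 0.12, edgeR adjusted p = 0.83, exact permutation p = 0.400).

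Rarb (chromosome 14, 16430839 to 16819156), the retinoic acid receptor beta gene whose promoter repeat is printed above, was at 12.8, 12.9, 13.1 and 15.7 CPM in null hearts 1 to 4 and at 11.5, 13.9, 15.6 and 14.7 CPM across WT hearts 5 to 8. The HVCN1 null values spanned 12.8 to 15.7 and overlapped 3 of the 4 WT values. Their log2 fold change was -0.04 (SE 0.12, edgeR adjusted p = 0.964, exact permutation p = 0.771). Rarb is on the minus strand, and the printed window (chr14:16575477-16575726) lies inside its span, before an internal start. The counts are for the whole gene and do not tell its starts apart. Rarb overlaps Top2b on the opposite strand, which had 16174 counts in all against 3741 for Rarb. The strand setting of the counting was not given in the sources used here. How far Top2b reads enter the Rarb counts was not tested.

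Rxra (chromosome 2, 27676440 to 27762957), the retinoid X receptor alpha gene and common partner of many nuclear receptors, was at 77.3, 85.2, 74.4 and 81.6 CPM in null hearts 1 to 4 and at 76.3, 81.0, 74.0 and 84.0 CPM across WT hearts 5 to 8. The values of both groups lay between 74.0 and 85.2 CPM. For Rxra the log2 fold change was 0.01 (SE 0.08, edgeR adjusted p = 0.995, exact permutation p = 0.771).

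Levels of different genes were compared as CPM per kb of merged exons. In WT hearts the order was Dhrs3 (32.9 ± 3.66, SD, n = 4 here and below), Rxra (14.4 ± 0.827), Cyp26b1 (7.02 ± 3.57), Rara (4.68 ± 0.496), Aldh1a1 (3.79 ± 0.746), Aldh1a2 (2.87 ± 0.728), Rarb (2.65 ± 0.337), Rbp4 (0.391 ± 0.365) and Stra6 (0.101 ± 0.0594). The ranges of mean ± SD overlapped between neighbours at each step from Cyp26b1 to Rarb and between Rbp4 and Stra6. They did not overlap between Dhrs3 and Rxra, between Rxra and Cyp26b1, or between Rarb and Rbp4. In null hearts Cyp26b1 was at 1.40 ± 0.821 CPM per kb, within the spread of Aldh1a2 at 1.51 ± 0.405, and Rarb was at 2.59 ± 0.262 CPM per kb.

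A wider list of 78 genes of retinoid handling and signalling was read from the same fit. Of these, 76 were found in the annotation and 50 were tested, and 5 of the remaining 26 had no count in any heart. Of the 49 tested genes other than Cyp26b1, 0 rose and 0 fell by the adjusted edgeR threshold, beside 1.14% of all tested genes, and 7 had an unadjusted p under 0.05, beside 11.0%. DESeq2 called 3 of the 49, Aldh1a2, Bhlhe40 and Lipe, beside 3.15% of all tested genes. With 25 higher and 25 lower among all 50, the median log2 fold change was -0.00, against -0.01 over all tested genes. Groups did not overlap for 2 of the 49 genes, Lipe and Bhlhe40, beside the 7.14% of all tested genes.

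Bhlhe40, a transcriptional repressor that is induced by retinoic acid and by many other signals, was at 56.8, 44.6, 54.5 and 33.8 CPM in null hearts 1 to 4 and at 24.1, 28.5, 27.0 and 31.2 CPM across WT hearts 5 to 8. Every null heart was above every WT heart. The means were 47.4 ± 10.5 and 27.7 ± 2.95 CPM (SD, n = 4 each), with a log2 fold change of 0.77 (SE 0.16, edgeR adjusted p = 0.0505, exact permutation p = 0.0286). That exact p is fixed by the lack of overlap, for which the gene was named, so it adds no support. Bhlhe40 passed the adjusted threshold with DESeq2 (adjusted p = 2.92e-04), among other settings.

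Lipe, the hormone-sensitive lipase that also releases retinol from its esters, was at 40.2, 42.7, 47.8 and 52.1 CPM in null hearts 1 to 4 and at 67.4, 65.2, 61.7 and 57.6 CPM across WT hearts 5 to 8. Every null heart was below every WT heart. The means were 45.7 ± 5.32 and 63.0 ± 4.26 CPM (SD, n = 4 each), with a log2 fold change of -0.47 (SE 0.10, edgeR adjusted p = 0.0596, exact permutation p = 0.0286). As for Bhlhe40, the exact p follows from the lack of overlap for which the gene was named. Lipe passed with DESeq2 (adjusted p = 0.00211).

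With 1.14% of all tested genes past the edgeR threshold, 0 calls in roles of so few genes say little about a role. By role, the 6 receptor genes were all tested, 0 of them passed that threshold and their log2 fold changes ran from -0.04 to 0.13. Rxrg had the highest level among them, 24.3 CPM per kb in WT hearts. The 8 cofactor genes ran from -0.22 to 0.19, and 0 of them passed the threshold. Of the 15 target genes of retinoic acid on the list, 10 were tested, with 8 higher and 2 lower, a median of 0.06, and 0 past the threshold. Over all tested genes, 7002 of 14796 were higher. Dhrs3 and Rarb, also known to be induced by retinoic acid but listed under other roles, had log2 fold changes of -0.18 and -0.04. Tgm2, tissue transglutaminase, was the most abundant of the 15 targets at 60.8 CPM per kb in WT hearts.

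Of 19 genes for the exchange of retinol and retinal, 11 were tested and ran from -0.61 to 0.15, with Dhrs4 the most abundant at 33.6 CPM per kb. In uptake, transport and storage 9 of 17 were tested and ran from -0.47 (Lipe) to 0.21, with Lpl, lipoprotein lipase, the most abundant at 409 CPM per kb. Fabp5, the only tested gene of 3 for binding in the cell, stood at 7.44 CPM per kb and had a log2 fold change of -0.08. Bco2, a carotene-cleaving enzyme, was scarce at 0.257 CPM per kb in WT hearts and had a log2 fold change of -1.59 (SE 0.57, edgeR adjusted p = 0.300).

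**Figure D4:**
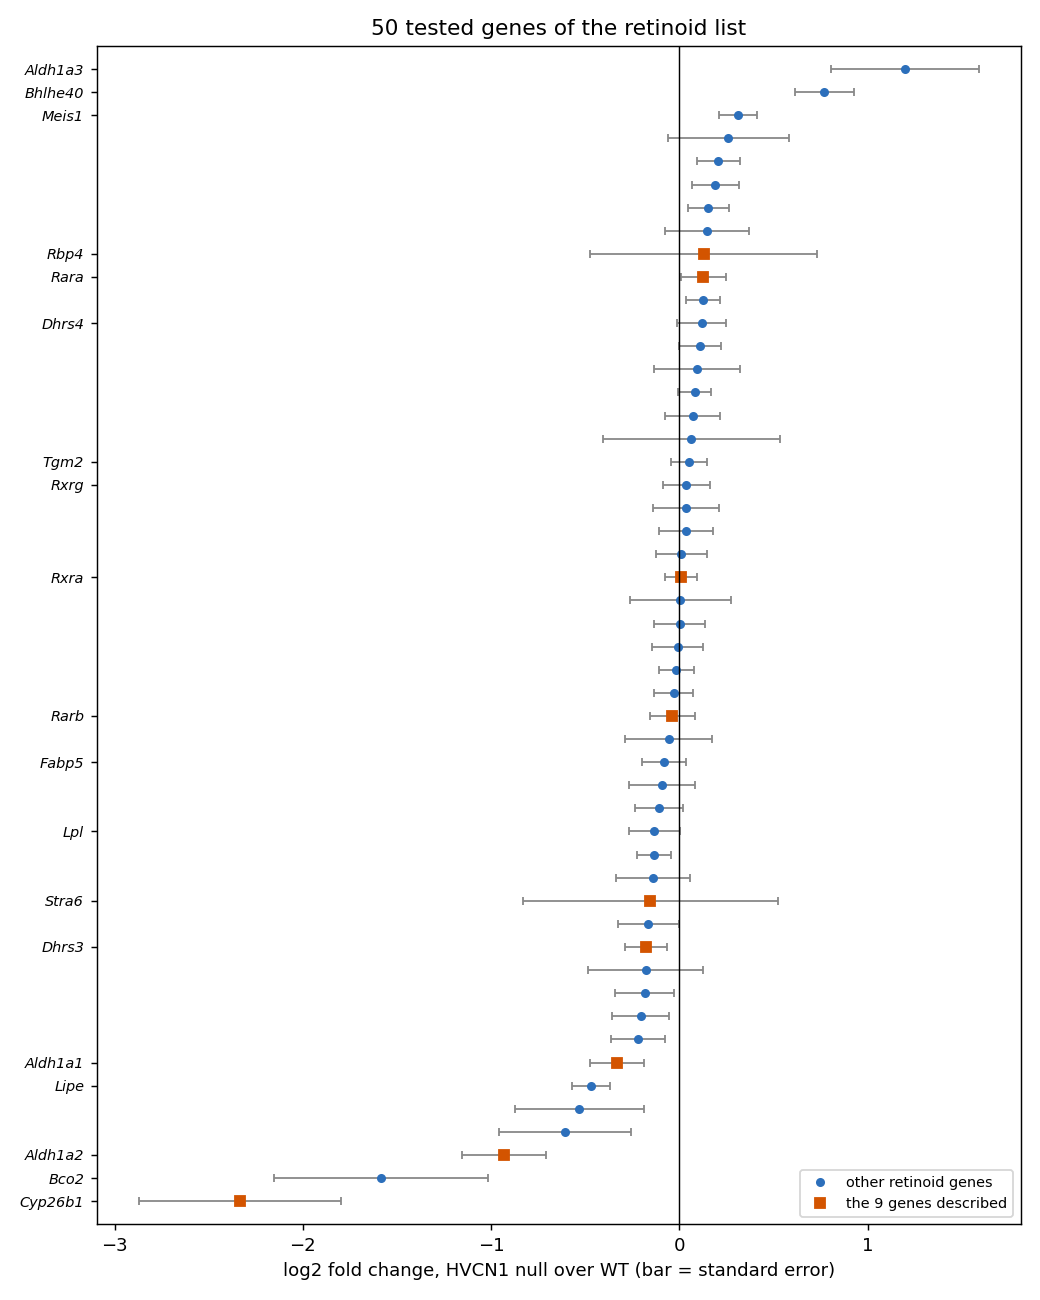
Log2 fold change (HVCN1 null over WT, x axis) of the 50 tested genes of the retinoid list, sorted by value, with bars for the standard error. Squares are the 9 genes described in full and circles the others, with names for the genes given in the text. Most genes lie close to 0, Cyp26b1 is at -2.33, and Aldh1a3 at 1.20 lies at the other end.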

How the data were processed

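Poly-A RNA of each heart was sequenced, and the deposited table holds counts of reads per gene that the authors made, without normalization, with STAR and featureCounts on mm10 (GRCm38) per the submitters' processing notes. The article's text names a human genome, but the gene identifiers are from mouse, and 38872 of 39056 matched GRCm38. Total counts ran from 25851255 to 38874640 per heart, so genes with few counts are imprecise. The hearts are separate animals.

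Genes were filtered with filterByExpr (14796 kept), scaled by TMM and tested with edgeR 4.0.16 (quasi-likelihood, R 4.3.3) at a Benjamini-Hochberg adjusted p of 0.05. The SE is the absolute log2 fold change divided by the square root of F. CPM use TMM over all genes, and log2 CPM add a prior count of 2. Exact tests used Python 3.11.15 and scipy 1.17.1.

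The members, lists and tests were chosen with earlier results of these data known. Genes named are the 9 members, Hvcn1, Myl7, genes of the wider list that passed or did not overlap, the most abundant gene per role, and the 10 most like Cyp26b1. A few genes of the list are not reported here, though counts over the list include them. Other genes named were added after their values were seen.

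Alternatives were RLE or no scaling, other filters, DESeq2 1.42.0, Myl7 or an atrial score as covariate and each heart left out. The Myl7-rich or Myl7-poor hearts alone and an epicardial score were added after seeing the data. Scores are means of z-scored log2 CPM of the markers.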

Additional observations from a re-analysis of the deposited data

Results flagged for a closer look

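Among 26 groups of 4 hearts (the 9 genes, Hvcn1, Myl7, Lipe and Bhlhe40, each genotype), 2 had a heart far from the other 3, by Dixon's test on the gap over the whole range. Chance marks about 1 in 20 groups. Aldh1a2 in null heart 2 was 4.79 CPM, against 2.83 to 3.07 in the other null hearts. This heart had the highest sums of epicardial, atrial, adipocyte and endocardial markers in its group, and the part of these tissues in the value was not tested. Rarb in null heart 4 was 15.7 CPM, against 12.8 to 13.1 in the other null hearts.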

How the results depend on the processing

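Of the 14796 genes, 169 passed edgeR's test, 174 with RLE size factors, 150 with library sizes not scaled, 466 with DESeq2, and 188, 250 and 256 with Myl7, the atrial score and the epicardial score as covariate. With no filter 219 of 23624 passed, 24 and 71 passed in the Myl7-rich and Myl7-poor hearts alone, and 71 to 152 when 1 heart was left out. Cyp26b1, chosen by this contrast, is not counted in what follows. Of the other 8 retinoid genes 0 passed in the reported fit, 1 (Aldh1a2) with DESeq2 and with each of the 3 covariates, and 0 to 1 with 1 heart left out (Aldh1a2 without null heart 2). On the wider list 0 passed in the reported fit, 1 each with RLE size factors, library sizes not scaled and no filter (Bhlhe40), 3 with DESeq2 (Aldh1a2, Bhlhe40 and Lipe), 2 with Myl7 and 2 with the atrial score (Aldh1a2 and Bhlhe40), 3 with the epicardial score (these and Aldh1a3), and 0 to 2 with 1 heart left out (Aldh1a2 without null heart 2, Bhlhe40 and Lipe without null heart 4). The cause was not tested. The direction held in all 18 alternatives for Aldh1a1, Aldh1a2, Dhrs3 and Rara, in 16 of 18 for Rarb, 13 of 18 for Rxra, 13 of 17 for Rbp4 and 12 of 16 for Stra6. Cyp26b1, whose direction was the reason for its choice, ran from -2.61 to -1.98 (log2) with 1 heart left out. No paired analysis was possible because the labels give no pairing of hearts between the genotypes. Alternatives for a correlation of Cyp26b1 with Myl7 were not run, since the hearts form separate sets of Myl7. Rbp4 and Stra6 rest on 74 to 86 counts per genotype and varied widely between hearts.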

Other observations

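Crabp1 and Crabp2, which encode cellular binding proteins of retinoic acid, gave 29 and 11 counts over the 4 null hearts and 5 and 1 over the 4 WT hearts. Both were under the filter on low counts. Crabp1 was at 0.241, 0.269, 0.341 and 0.0567 CPM in null hearts 1 to 4 and at 0.0253, 0.0310, 0.0786 and 0 CPM across WT hearts 5 to 8, with null heart 4 inside the WT range. The exact permutation p, two-sided, was 0.0571 for Crabp1 and 0.143 for Crabp2.

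Meis1, a homeobox gene on the list of retinoic acid targets, was at 28.3 ± 2.48 CPM in null against 22.7 ± 2.42 CPM in WT hearts (SD, n = 4 each; log2 fold change 0.31, SE 0.10, edgeR adjusted p = 0.248). Null heart 3 at 25.1 CPM was just under WT heart 7 at 25.5 CPM.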
